A study of Saccharomyces cerevisiae with 5 samples.

Results

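The normal replication programme of budding yeast (Saccharomyces cerevisiae) was read from the 2 wild-type samples, A and B, of a series of 5. They were chosen by their strain label, WT [yIW160], and no measured value was used to choose them. The other 3 samples come from the strain labelled WT [yIW160-SSDDCS], in which galactose raises 6 initiation factors, Sld2, Sld3, Dbf4, Dpb11, Cdc45 and Sld7. Samples E and G of that strain grew in galactose (n = 2) and sample F in glucose, where the labels call expression of the factors normal (n = 1). All 5 cultures were asynchronous. The growth note, the same for all 5, gives 30 degrees, 4 h in 2% glucose or galactose, and then doxycycline at 40 micrograms per ml for 2.5 h. The medium of wild type A and B is not among their labels. The wild-type samples were sequenced as paired ends on Illumina and the other 3 as single ends on Ion Torrent, so that platform and strain cannot be told apart. Nothing in the labels says that replicates are separate cultures, so the spread between A and B may be technical.

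Replication forks leave an origin in both directions, and each fork copies one strand in short pieces called Okazaki fragments, whose strand tells which way the fork moved. Adding doxycycline switches off DNA ligase I in these cells, which leaves the fragments separate for sequencing. An origin used in every cell turns fork direction sharply from leftward to rightward, one used in few cells turns it a little, and forks from neighbouring origins meet and terminate in between. The authors fitted such fork paths to each sample. Each path has a start, an end and a probability, which is the fraction of genome copies that use it. Below, a position from which paths of both directions set out is called an initiation site if its probability reaches 0.1. Positions are those of the deposited tables, whose genome build is not given in the sources used here.

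Some properties of the fit bear on every value below. Fork speed was set to 2900 bases per minute in all 5 fits, so speed and the minutes that follow from it are not measurements. The lowest mean time was exactly 0 on each of the 16 chromosomes in all 5 samples. Time 0 is therefore the earliest place of each chromosome, and minutes on different chromosomes have no common origin. On chromosome XII of A the 0 lay at 459954 and 513478, the edges of a stretch with no averaged positions, where path probabilities summed to 0.116 and 0.716, and all chromosome XII times of A count from there. No 2 initiation positions of a fit lay closer together than 11.9 kb in wild type A and 11.9 kb in B, nor closer than 11.0 to 13.0 kb in the other 3. The files analysed here hold no read counts, so the depth behind each sample is unknown.

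Most places at which wild-type cells started replication were used in some copies of the genome but not in all. A held 282 initiation sites and B 309, and their summed probability, which estimates the initiations per genome copy, was 166 in A and 184 in B (175 ± 12.6, SD, n = 2). One initiation therefore fell to 72.6 kb of genome in A and to 65.6 kb in B. The median probability of a site was 0.641 in A and 0.642 in B, and the middle 50% of sites lay between 0.420 and 0.760 in A and between 0.351 and 0.815 in B. The medians were nearly equal, and the values of B were spread more widely.

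Sites of middle and high use carried most of the programme. Between 0.7 and 0.9 there were 95 sites in A and 94 in B, which supplied 44.8% and 40.9% of all initiations. Between 0.5 and 0.7 there were 77 in A and 68 in B, and between 0.3 and 0.5 there were 53 and 52. The weakest class, from 0.1 to 0.3, held 42 sites in A and 58 in B but supplied only 5.37% and 6.29% of initiations. The strongest class, from 0.9 upward, was the least alike, with 15 sites in A and 37 in B. Of these, 6 in A and 14 in B stood at 1, the highest value the fit can give.

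Sites were spread along the chromosomes at widely varying distances. The distance between neighbouring sites had a median of 38.9 kb in A and 34.3 kb in B, and its 10th and 90th percentiles were 20.6 and 66.0 kb in A and 19.8 and 60.3 kb in B. Under 20 kb there were 26 of 265 distances in A and 32 of 292 in B, and over 80 kb there were 8 and 6. Since the fits place no sites closer than the distance given above, the lower end of this range is bounded by the fit. Taking only sites with a probability of at least 0.5, which numbered 187 in A and 199 in B, the median distance was 53.0 kb in A and 51.4 kb in B.

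Some of the longest stretches without a site were the same in both samples. Leaving out the stretch of chromosome XII that has no averaged positions, 3 of the 8 distances over 80 kb in A and 3 of the 6 in B held no site of the other sample either. The longest of A alone, on chromosome IV from 1058010 to 1165439 (107 kb), held a site of B with a probability of 0.356. On chromosome IV no site lay between 913572 and 1016716 in A (103 kb) or between 913661 and 1017212 in B (104 kb). On chromosome XIII the stretch from 287997 to 371340 in A measured 83.3 kb, and its counterpart in B measured 84.0 kb. The next ones lay on chromosome X from 459760 (80.7 kb in A, 81.7 kb in B) and on chromosome II from 408432 (78.6 kb in A, 78.6 kb in B). Those on chromosome VIII from 168917 (76.8 kb in each sample) and chromosome XII from 157413 (73.6 kb in A, 74.3 kb in B) complete the 6 longest of A that B has too. The site at the left of the chromosome X stretch was weak (0.148 in A, 0.155 in B), as was the one at the left of the chromosome VIII stretch (0.267 in A, 0.227 in B). The other flanking sites had probabilities of at least 0.637 in both samples.

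The 2 samples placed their sites at nearly the same bases. Sites within 2500 bp of each other were counted as shared, and 266 were, which is 94.3% of the sites of A and 86.1% of those of B. The median distance between the paired positions was 85.5 bp, 83.1% of pairs lay within 500 bp, and the largest distance was 2019 bp. Shared sites held 96.8% of the summed probability of A and 94.0% of that of B. The 16 sites of A alone and the 43 of B alone were weaker, with mean probabilities of 0.329 and 0.258 against 0.605 and 0.6503 for shared sites in A and B.

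A few sites of 1 sample were nevertheless well used. The strongest were listed in A alone, on chromosome V at 498188 with a probability of 0.664, on chromosome IV at 753365 with 0.655, and on chromosome XV at 600901 with 0.643. The strongest of B alone, on chromosome IV at 748542 with 0.551, lay 4.82 kb from the second of these, so that a shift in position and a missing site cannot be told apart there. Of the sites listed in 1 sample, 7 of A and 7 of B had a site of the other sample within 10 kb.

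How often a shared site fired was also alike. Over the 266 shared sites Pearson's r of the probability in A with that in B was 0.911 and Spearman's rho was 0.899. These are correlations across sites of the same 2 fits, given as a description. The median absolute difference was 0.0743, 67.7% of sites differed by less than 0.1, and 19 differed by more than 0.2. The difference leaned one way, since 182 sites were higher in B, 79 were higher in A, and the mean of A minus B was -0.0450. The plot of shared sites shows this as a cloud that sits above the line of equal probability at its upper end.

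**Figure D1:**
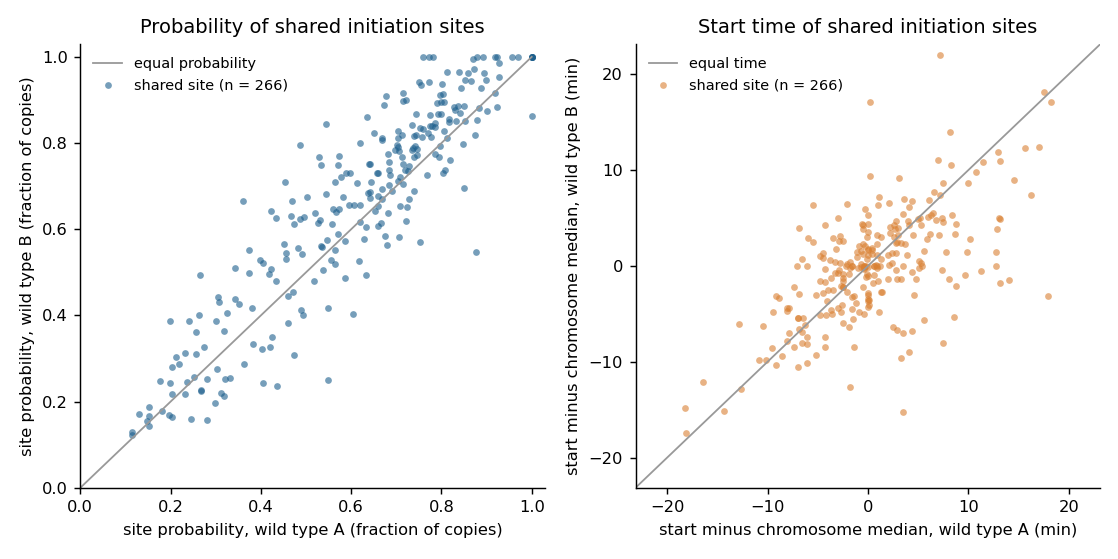
Left, probability of each of the 266 shared initiation sites (fraction of genome copies) in wild type A (x axis) and wild type B (y axis). Right, start time of the same sites in minutes, with the median of the shared sites of each chromosome subtracted, in A (x axis) and B (y axis). Grey lines mark equal values. Probabilities lie close to the line (Pearson's r = 0.911), and start times scatter more.

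A small set of sites fired in every copy in both fits. A probability of 1 in A and in B was reached on chromosome III at 39813 and 109446, chromosome VI at 167581, chromosome VII at 485115 and chromosome XIII at 287997 (positions of A). These 5 lay 2 to 746 bp from their counterparts in B. The next 3 were on chromosome IV at 435453 (0.969 in A, 1 in B), chromosome VII at 509010 (0.957 in A, 1 in B) and chromosome XIV at 196304 (0.927 in A, 0.987 in B). In the other strain all 8 were listed in every sample, at 0.776 or above except for the chromosome XIV site in glucose, which stood at 0.627. Among the 8, those on chromosome III at 39813, chromosome VI, chromosome VII at 485115 and chromosome XIII started between -0.0717 and 0.106 min, at time 0 of their own chromosome, whereas the chromosome IV site started at 5.99 min in A and 10.3 min in B.

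Among shared sites, the largest difference in probability was under that of the strongest sites listed in 1 sample alone. Chromosome IV at 505661 had a probability of 0.876 in A and 0.548 in B. The reverse held on chromosome XII at 289300 (0.488 in A, 0.795 in B), chromosome XII at 947619 (0.361 in A, 0.665 in B) and chromosome VII at 977886 (0.545 in A, 0.844 in B). Near the right end of chromosome XII, the site at 1064483 stood at 0.549 in A and 0.251 in B and was listed in none of the other 3 samples. The remaining 3 of the 8 were all higher in B, on chromosome IV at 233356 (0.453 in A, 0.710 in B), chromosome II at 236162 (0.760 in A, 1 in B) and chromosome XIV at 497992 (0.530 in A, 0.768 in B). Of these 8 shared sites, 6 were higher in B.

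Start times were less alike than probabilities. Within chromosomes, with each chromosome's median subtracted, Pearson's r between A and B over the 266 shared sites was 0.626, and the median absolute difference was 2.57 min. Start times ran from -12.0 to 25.9 min in A and from -12.7 to 30.6 min in B. A start below 0 arises because 0 is the lowest mean time of a chromosome and a path may start before the mean. In A 79.1% of sites and in B 72.5% started before 10 min, and 8 sites of A and 13 of B started after 20 min of the time of their own chromosome.

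The latest well-used sites were concentrated in the left part of chromosome IV. Among shared sites with a probability of at least 0.3 in both samples, 6 of the 8 latest lay on chromosome IV between 46250 and 254012. The site at 158435 started at 25.9 min in A and 30.6 min in B, the latest mean of all. The site at 123674 was late although it fired in most copies, with a start of 20.6 min in A and 25.4 min in B and a probability of 0.869 and 0.996. The other 2 lay near right ends, on chromosome VII at 1063736 (23.7 min in A, 24.2 min in B) and on chromosome XVI at 930314, where A gave 9.07 min and B 30.6 min. The place of the last one in this list therefore rests on B.

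The earliest starts were likewise uneven between samples. By the same rule the earliest mean start was on chromosome XV at 1053695 (-8.78 min in A, -6.26 min in B, probability 0.786 and 0.774), 37.6 kb from the right end. Chromosome IV at 913572, the left border of the longest stretch without a site in both samples, started at -10.6 min in A and -1.27 min in B. Of the other 6, 3 were on chromosome I (at 159471, 176835 and 29639), 2 on chromosome XII (at 730820 and 157413) and 1 on chromosome II (at 63348), with starts from -6.42 to -2.11 min in A and from -6.36 to -3.37 min in B. Because times have no common origin across chromosomes, these lists rank sites against the earliest place of their own chromosome.

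Use and timing of a site were only loosely related. The probability in 1 sample was set against the start time in the other. This keeps the 2 quantities apart only in part, since the probabilities of A and B were alike (r = 0.911). Over the 266 shared sites Pearson's r was -0.0732 for probability in A with start in B and -0.121 for probability in B with start in A. Within 1 sample, over all its sites, r was -0.0934 in A and 0.0127 in B. With the median start of each chromosome subtracted, the values across samples were -0.156 and -0.176. From the lowest to the highest quartile of probability in A, the median start in B was 5.50, 8.25, 4.99 and 3.74 min. By probability in B, the medians in A were 6.13, 6.02, 3.58 and 3.43 min. The middle 50% of the lowest quartile by A ran from -0.623 to 11.9 min, which covered the medians of all 4 quartiles. These quartiles pool uncentred minutes of all chromosomes, which have no common origin, so differences between chromosomes enter them.

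Fork direction changed at each site by about as much as the site was used. Rightward forks made up 49.0% of fork movement in A and 49.4% in B over all positions, an even balance. At sites of the 0.9 class the rightward share was 2.57% in A and 1.58% in B at 1 kb to the left, and 98.8% in A and 98.4% in B at 1 kb to the right. At sites from 0.7 to 0.9 it was 10.2% and 9.58% on the left, and 89.1% and 90.3% on the right. At the weakest sites, from 0.1 to 0.3, the step was small, with 34.0% and 36.6% on the left and 55.0% and 55.1% on the right. The size of this step follows from the probability by the construction of the fit.

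The reach of a site was read farther out. At 10 kb to the right of sites from 0.7 to 0.9, the rightward share was still 85.4% in A and 85.3% in B, and at 20 kb it was 64.5% and 65.6%. At 30 kb it had come to 51.7% in A and 56.2% in B, close to an even balance. At sites of the 0.9 class the share was 95.5% in A and 95.6% in B at 10 kb but 47.9% and 53.0% at 20 kb, lower than in the class below. The share at 20 kb thus did not rise with use throughout. This class held 15 sites in A and 37 in B. At 20 kb to its left the share was 64.8% in A and 44.9% in B, against 31.1% and 33.9% in the class below. Neighbouring sites also bear on these shares, and their part was not tested. The weakest sites had already lost their step at 10 kb, where the share was 46.5% in A and 43.0% in B. In the plot of rightward share around sites, the curves of each class lie in the order of their probability from 1 kb to 10 kb on the right in both samples.

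**Figure D2:**
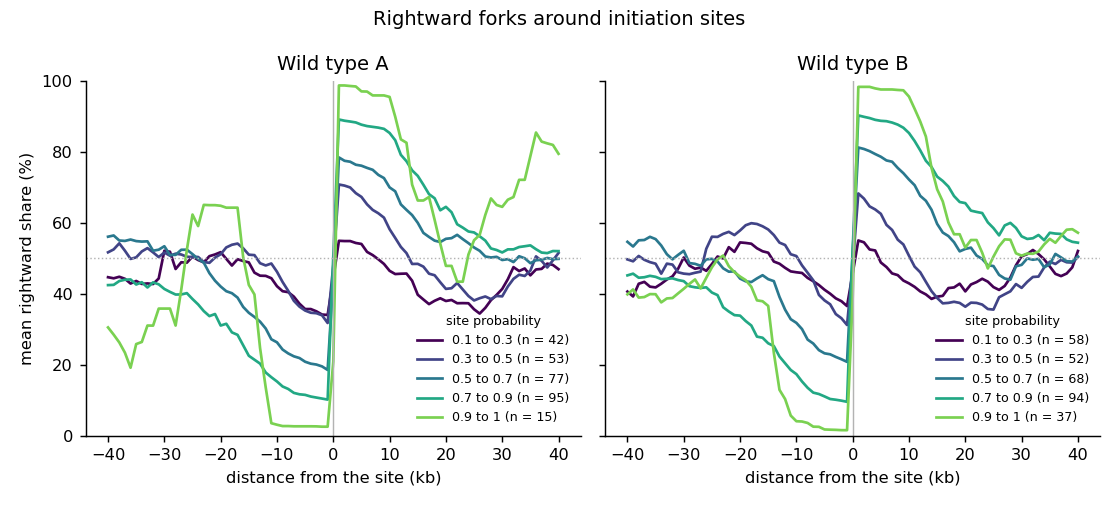
Mean share of rightward forks (%, y axis) by distance from an initiation site (kb, x axis) in wild type A (left) and wild type B (right), 1 line per class of site probability with the number of sites in the legend. The step at the site is larger in classes of higher probability, and in the class from 0.7 to 0.9 the share comes to 51.7% in A and 56.2% in B at 30 kb to the right.

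Much of the wild-type genome was copied by forks of both directions. Positions copied from one side in at least 90% of copies made up 28.2% of the genome in A and 36.8% in B. Positions where the rightward share lay between 25% and 75% made up 32.7% in A and 28.7% in B. The majority direction was the same in both samples at 92.4% of 23837 positions, and the mean absolute difference of the rightward share was 9.68 percentage points. At only 0.940% of positions did each sample hold over 75% of forks in opposite directions. Copying from one side in at least 90% of copies in both samples held at 21.6% of positions, which formed 148 runs of at least 5 kb, 59 rightward and 89 leftward, with a median length of 13.0 kb.

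The longest of these runs lay beside strong sites or at chromosome ends. On chromosome VI, forks moved rightward from 200540 to 269139 (68.6 kb), with a mean rightward share of 96.6% in A and 97.0% in B. This run reaches almost to the right end of the chromosome. On chromosome XIII the run from 288289 to 341296 (53.0 kb) starts just right of the site that fired in every copy, and the share was 100% in both. The third ran on chromosome VII from 1000680 to 1045700 (45.0 kb, 95.5% in A, 97.2% in B). The last 2 of the 5 were leftward runs out to the left ends of chromosome VIII (44.5 kb) and chromosome XVI (42.5 kb), with a rightward share of 0 in both samples. In the outermost 30 kb of all chromosomes, 90.4% of fork movement in A and 90.8% in B was towards the end. Beyond the outermost initiation of a chromosome every fork moves towards the end. These shares, and the runs out to chromosome ends, therefore follow in part from where that initiation lies.

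In the fits, forks between sites met at a few points within each interval. The fit sets the fork speed and gives each site 1 start time. Forks from a given pair of sites can therefore meet at only 1 point. Narrow zones and few meeting points are thus largely built in, and the spread of meeting points in cells was not tested. Termination was examined between neighbouring sites with a probability of at least 0.3, which gave 223 intervals in A and 234 in B with a median length of 43.1 and 40.6 kb. The termination zone was taken as the stretch over which the middle 50% of the fall in rightward share occurs. Its median width was 0.368 kb in A and 0.351 kb in B, below the 500-bp step of the deposited positions. The resolution therefore limits these medians as well. In 52.9% of intervals in A and 55.6% in B the zone was narrower than 500 bp, and in 66 intervals of A and 58 of B it was wider than 10 kb. Over the middle 80% of the fall, the median width was 12.9 kb in A and 10.3 kb in B.

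In the fits, a main meeting point took most terminations in the typical interval. With 1 start time per site, forks of a given pair of sites meet at the same point in every copy. A large share for 1 meeting point is therefore largely built in, and its share in cells was not tested. In the median interval, the most used meeting point took 70.7% of terminations in A and 72.2% in B, and the standard deviation of the meeting positions was 6.44 kb in A and 5.45 kb in B. The median interval held 3 meeting points in each sample. In 89 of the 178 intervals that A and B share, the zone was below 500 bp in both. Of these, 7 stood in both samples at 0.25 kb, the smallest width found, so the narrowest cannot be ranked. They include both sides of the chromosome XIII site that fired in every copy.

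The widest zones lay in long intervals. On chromosome IV, between the sites at 805825 and 913572, the fall was spread over 62.8 kb in A and 61.6 kb in B, in an interval of 108 kb. On chromosome XVI between 684240 and 777114 the width was 48.1 kb in A and 60.3 kb in B. On chromosome IV between 1165439 and 1241097 it was 59.4 kb in A and 48.6 kb in B. The zones on chromosome II between 539975 and 622897 (52.5 kb in A, 38.6 kb in B) and on chromosome VIII between 133830 and 245736 (28.2 kb in A, 56.9 kb in B) differed more between samples. Sites under 0.3 do not bound an interval here, and 4 of these 5 intervals held such weak sites in both samples. In A they stood at up to 0.224, 0.219, 0.231 and 0.267 on chromosome IV, XVI, II and VIII, and none lay in the interval from 1165439. In B the values were 0.256, 0.288, 0.218 and 0.227, and the interval from 1165439 held a site at 0.143. Over all 178 shared intervals, 17 (9.55%) held a weak site in both samples, as did 14 of the 20 longest, which were 76.3 kb or longer.

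In intervals with the same flanking sites, the termination positions of both samples lay near each other. The distance from the midpoint, as a percentage of the distance from the midpoint to either flanking site, had a median of 19.2% in A and 20.6% in B, or 4.02 and 4.20 kb. It was under 20% in 53.4% of intervals in A and 48.7% in B, and over 50% in 17 intervals of A and 28 of B. Over the 178 shared intervals the termination positions of A and B differed by a median of 1.5002 kb (75th percentile 3.33 kb), and 88.2% lay within 5 kb of each other. These intervals were chosen for having the same flanking sites in A and B, and offsets from the midpoint were small. Closeness within 5 kb is therefore in part fixed by that choice. Termination fell on the same side of the midpoint in both samples in 140 intervals (78.7%). Pearson's r of the offset in A with that in B was 0.813 and that of the width was 0.704, across intervals that neighbour each other along the same chromosomes.

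In most intervals forks met nearer to the flanking site that started later. With start times taken from the other sample, termination in A lay towards the site that started later in B in 136 of 178 intervals (76.4%), and termination in B towards the later site of A in 137 (77.0%). With these starts of the other sample, the offset moved by 1139 bases per minute of start-time difference in A (Pearson's r = 0.798). In B it moved by 1239 bases per minute (r = 0.813). A constant fork speed alone gives 1450 bases per minute. Since the fit sets that speed and gives each site 1 start time, the relation within a sample is largely built in. With starts of the same sample, termination lay towards the later site in 215 of 223 intervals in A and 217 of 234 in B. Over these intervals the slope was 1314 bases per minute in A (r = 0.906) and 1331 in B (r = 0.860). With starts of the other sample, the relation also depends on how alike the start times of A and B are. Termination lay towards the weaker flanking site of the other sample less often, in 59.6% of intervals for A and 61.8% for B. The difference between these shares was not tested.

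**Figure D3:**
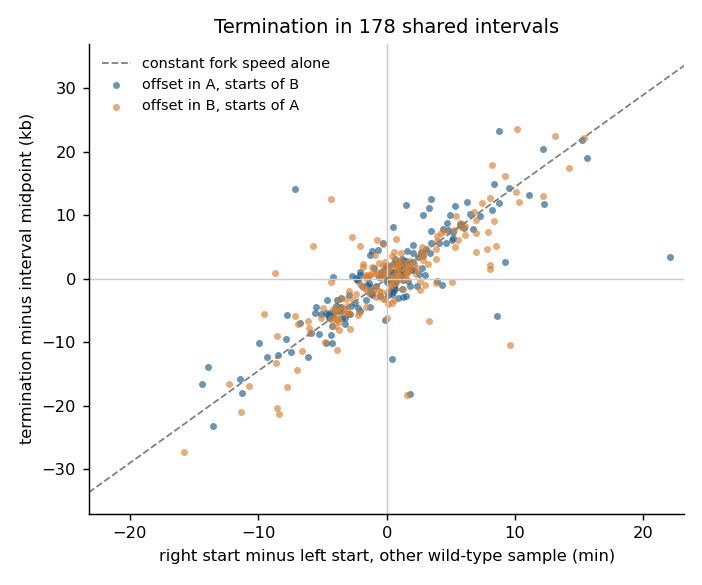
Distance of the termination position from the midpoint of its interval (kb, positive to the right, y axis) by the difference in start time between the right and left flanking sites in the other wild-type sample (min, x axis), for 178 shared intervals. Blue, offset in A with starts of B; orange, offset in B with starts of A; dashed, the line that a constant fork speed alone gives (1450 bases per minute). The slopes of the points, 1139 (A) and 1239 (B) bases per minute, are below that of the line.

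Chromosomes differed in how densely they initiated, a measure that needs no common time. Initiations rose with chromosome length (Pearson's r over 16 chromosomes 0.966 in A and 0.970 in B). The density ran from 1.07 initiations per 100 kb in A and 1.24 in B on chromosome XII to 2.02 in A and 2.07 in B on chromosome III. Chromosome III, among the shortest, thus stood at the top in both samples, followed by chromosome XIV with 1.65 in A and 1.83 in B. Chromosome XII was lowest in both. It is known to carry the ribosomal DNA repeats, and the averaged positions of both samples break off there between 449449 or 459954 and 513478. This break, 53.5 kb in A and 64.0 kb in B, is counted in the chromosome length and lowers the density given for chromosome XII.

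The order of the other 13 chromosomes was less firm. Over all 16, Pearson's r of the density between A and B was 0.844 and Spearman's rho was 0.612. B held more initiations on 13 chromosomes, the exceptions being V, VI and IX. Chromosome I, the shortest, had 6 sites and 1.22 initiations per 100 kb in A, and 9 sites and 1.53 in B. Chromosome VIII had 1.35 in A and 1.63 in B, chromosome XVI had 1.32 and 1.59, and chromosome XIII had 1.43 and 1.70. The longest chromosome, IV, held 33 sites with 20.2 initiations in A and 37 with 22.9 in B, and its densities of 1.32 and 1.49 lay close to those of chromosomes VII (1.34 and 1.48), II (1.32 and 1.37) and XV (1.42 and 1.47). The rest were chromosome V (1.57 and 1.56), XI (1.46 and 1.60), IX (1.45 and 1.39), VI (1.41 and 1.40) and X (1.24 and 1.40), whose order the difference between A and B does not settle.

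Mean time by chromosome was lowest on chromosome I (5.94 min in A, 4.67 min in B) and III (7.63 and 5.68 min) and highest on chromosome IV (16.2 and 19.7 min). These means count from each chromosome's own 0, and across chromosomes they followed length, with a Pearson's r of 0.775 in A and 0.811 in B. They therefore do not say that chromosome I was copied before chromosome IV. Spearman's rho of the order between A and B was 0.662 over 16 chromosomes. Chromosome XVI moved most, ranking as the 4th lowest in A (10.5 min) and the 14th in B (16.2 min), and without it rho was 0.811.

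Within chromosomes, fork direction was alike everywhere and time was not. Over the 5-kb windows of each chromosome, Pearson's r of the rightward share between A and B ran from 0.794 on chromosome V to 0.963, with a median of 0.939. For mean time the median was 0.905 and 9 chromosomes lay above 0.9, among them XIV (0.974) and VII (0.976). Time was least alike on chromosome XVI (0.0493), XI (0.457), XII (0.462) and VIII (0.468), while direction on these 4 had an r of 0.944, 0.933, 0.923 and 0.890.

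**Figure D4:**
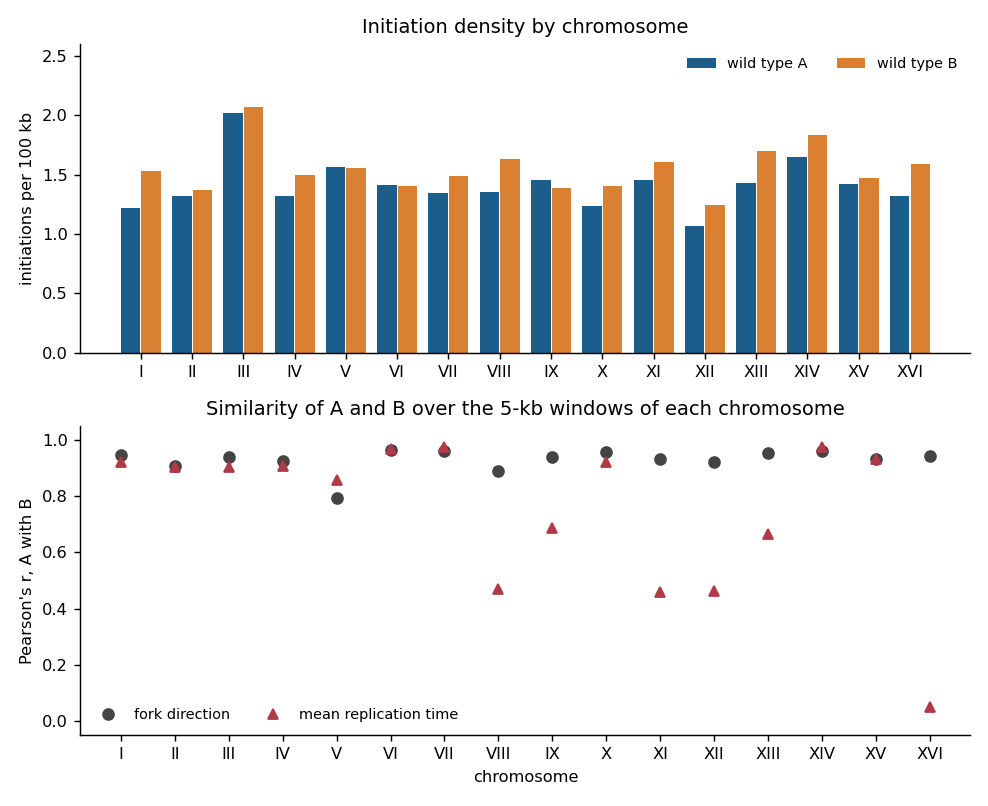
Top, initiations per 100 kb on each chromosome (bars from 0) in wild type A (blue) and wild type B (orange). Bottom, Pearson's r between A and B over the 5-kb windows of each chromosome, for fork direction (circles) and mean replication time (triangles). Chromosome III has the highest density in both samples, and on chromosome XVI r is 0.944 for direction and 0.0493 for time.

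On some of these chromosomes the sign of the difference was opposite at the 2 ends. On chromosome XVI, the mean of A minus B was 7.93 min in the leftmost 20% of the chromosome and -15.4 min in the rightmost 20%. The means were 15.5 min in A and 7.56 min in B on the left, and 9.83 min in A and 25.3 min in B on the right. On chromosome VIII, A minus B was 11.5 min on the left and -5.67 min on the right. On chromosome XIII the difference was 0.0702 min on the left and -11.0 min on the right. It was 1.44 min on the left and 11.6 min on the right, beyond the break, on chromosome XII, and 5.24 min on the left and 0.473 min on the right on chromosome XI. How the difference changes between the ends was not tested. Of the 216 windows that differed by over 10 min between A and B, 101 lay on chromosome XVI, 45 on XIII, 36 on XII and 26 on VIII. With each chromosome's median subtracted, 127 windows differed by over 10 min, 66 on XVI, 31 on XII, 30 on VIII and none on XIII.

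The earliest place was the same in both samples on some chromosomes. It lay within 5 kb on 7 of the 16 chromosomes and over 100 kb apart on 7. The latest 5-kb window lay in the same chromosome end in both samples on 12 of 16, where fitted time rises towards the end by construction. Among the earliest 5% of windows in each sample, 70 of 119 were shared, in 24 runs on 11 chromosomes, and none lay in the outermost 30 kb, which holds 184 of all 2386 windows. These windows, too, are ranked from the 0 of their own chromosome. The longest run was on chromosome I from 135001 to 185000 (mean 1.049 min in A, 1.70 min in B). It was followed by runs on chromosome VII from 475001 to 495000, IV from 1010001 to 1025000, II from 230001 to 245000 and V from 165001 to 180000, with means of 0.825 to 1.67 min in A and 1.12 to 1.68 min in B.

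Many of the latest windows lay at ends and on the left part of chromosome IV. Of the latest 5% of windows, 72 of 119 were shared, in 11 runs on 8 chromosomes, and 24 of the 72 (33.3%) lay in the outermost 30 kb, against 7.71% of all windows. This share is in part built in, since fitted time can only rise from the outermost initiation to the end. Since times count from each chromosome's own 0, 7 chromosomes, I and III among them, did not reach the limit for the latest 5% in at least 1 sample and could not contribute. The longest run covered the first 115 kb of chromosome IV (mean 30.1 min in A, 31.98 min in B), and a second one lay there from 130001 to 205000 (29.5 and 32.6 min). The others of the 5 were on chromosome VII from 1030001 to 1080000 (29.7 and 30.5 min), on chromosome IV from 245001 to 290000 (26.9 and 29.2 min) and in the first 30 kb of chromosome XV (32.3 and 30.8 min).

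In the fits, chromosome ends were late on most chromosomes. Beyond the outermost initiation the fitted time can only rise towards the end, at the set fork speed. The lateness of ends is therefore in part built in, and how much of it is was not tested. Of 32 ends, 28 were later than the interior of their own chromosome in both samples, 1 was earlier in both and 3 were split. The mean delay was 9.66 min in A and 8.36 min in B. The largest mean delays were at the left ends of chromosomes XV (17.7 min in A, 17.9 min in B) and VIII (23.2 and 11.9 min). The exception in both samples was the right end of chromosome XV, 9.02 min earlier in A and 4.45 min earlier in B than its interior, which is also the end nearest to the site with the earliest mean start. The left end of chromosome XI and the right ends of chromosomes IX and XIII were the 3 that A and B placed on opposite sides.

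Ends also initiated less. Sites within 30 kb of an end had a mean probability of 0.403 in A and 0.332 in B, against 0.607 and 0.621 elsewhere. They gave 1.006 initiations per 100 kb in A and 0.935 in B at the ends, against 1.41 and 1.58 elsewhere. A site lay within 30 kb of the end at 22 of 32 ends in A and at 24 in B, and the median distance from the end to the first site was 24.98 kb in A and 19.5 kb in B. Sites under 0.3 made up 9 of the 24 end sites in A and 13 of the 27 in B, and the strongest end site reached 0.768 in A and 0.725 in B.

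Set against the other 3 samples, the wild-type fits used their sites less and copied less of the genome from one side only. The mean site probability was 0.590 in A and 0.596 in B, against 0.789 and 0.803 in galactose E and G and 0.657 in glucose F. The wild-type values lay below all 3 others. The exact permutation test of wild type (n = 2) against the other 3 samples gave p = 0.2 (adjusted p = 0.533 over 8 measures), and the smallest p this design allows is 0.1, so no measure could pass the threshold of 0.05.

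In the fits, the share of the genome copied at least 90% one way separated wild type from the rest. It was 28.2% in A and 36.8% in B (32.5 ± 6.09%, SD, n = 2), against 58.0% and 65.6% in galactose (61.8 ± 5.41%, SD, n = 2) and 47.8% in glucose. The lowest value outside wild type lay above both wild-type values (exact permutation p = 0.1, adjusted p = 0.4). The median width of termination zones was 0.368 kb in A and 0.351 kb in B, against 0.282 and 0.262 kb in galactose and 0.307 kb in glucose. It also did not overlap (exact permutation p = 0.1, adjusted p = 0.4), but all 5 medians lie below the 500-bp step. Over the middle 80% of the fall, the medians were 12.9 and 10.3 kb in wild type, against 2.79 and 0.419 kb in galactose and 8.45 kb in glucose (exact permutation p = 0.2). The wild-type fits also held more fork paths, 6353 in A and 6039 in B, against 3345 and 3189 in galactose and 4545 in glucose. What part the number of paths has in the one-way share, the zone widths and the site probabilities was not tested.

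For the other 5 measures the groups overlapped. The number of sites was 282 and 309 in wild type, against 316 and 339 in galactose and 277 in glucose (exact permutation p = 0.5). The summed probability was 166 and 184 in wild type, against 249 and 272 in galactose and 182 in glucose (exact permutation p = 0.3). Glucose lay between the 2 wild-type samples on this measure, and galactose lay above all others. The median distance between sites was 38.9 and 34.3 kb in wild type, against 34.3 and 31.8 kb in galactose and 37.6 kb in glucose (exact permutation p = 0.4). The median offset of termination from the midpoint was 19.2% and 20.6% in wild type, against 9.19% and 8.73% in galactose and 21.3% in glucose (exact permutation p = 0.4). The interquartile range of mean time was 8.97 and 9.42 min in wild type, against 6.62 and 8.73 min in galactose and 9.98 min in glucose (exact permutation p = 0.7). Adjusted over the 8 measures, these 5 exact permutation p-values were between 0.533 and 0.7. Strain and sequencing platform differ together here and cannot be told apart, and whether the medium differed too is not known, since that of wild type is not given.

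**Figure D5:**
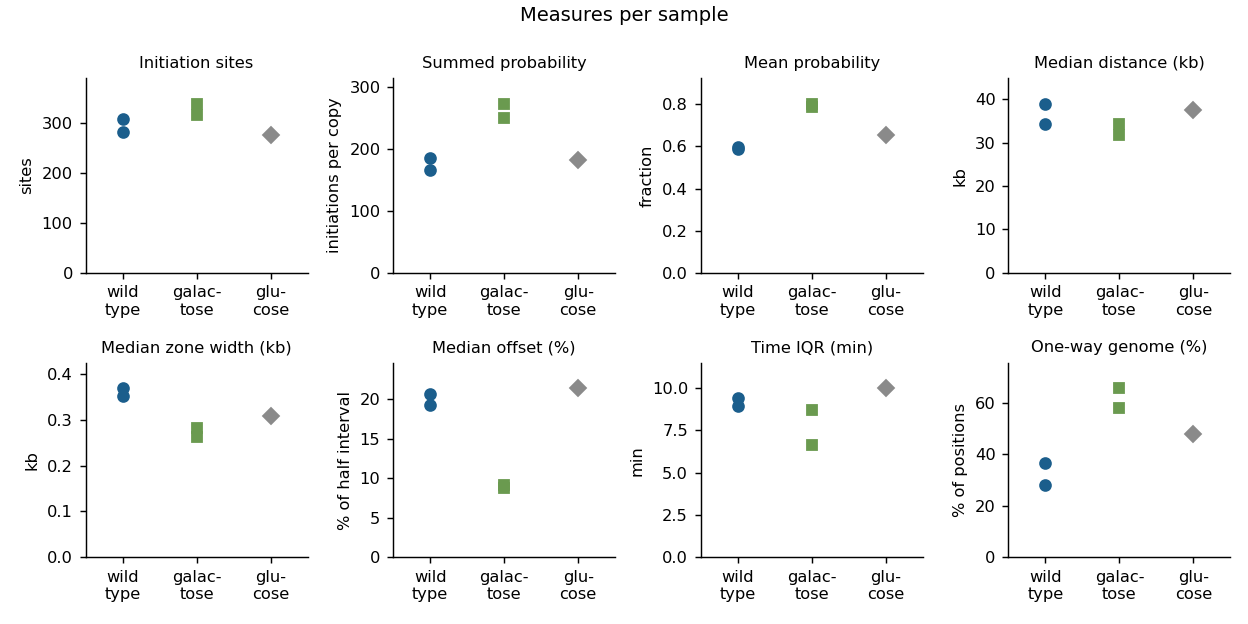
The 8 measures per sample, each panel with its own y axis from 0 and its unit, for wild type (circles, A and B), galactose (squares, E and G) and glucose (diamond, F). Each point is 1 sample and there are no error bars. Wild type lies below all others in mean probability (0.590 and 0.596) and in the one-way share (28.2% and 36.8%), and above all others in median zone width.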

How the data were processed

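Per the labels, each sample's Okazaki fragments were sequenced and turned by the authors into a fitted model of fork paths; which aligner, genome build or fitting program they used is not given in the sources used here. The deposited path table holds the start and end of each path in bases and minutes, its direction and its probability, a fraction from 0 to 1 per the labels. The deposited table of averages holds the mean time every 500 bp, in minutes, with the probabilities added up, which is the fraction 1 at every position. The third deposited table, a sampled form of the paths, was not used. Recomputing the mean times from the paths gave a largest difference from the deposited values of 0.206 min in wild type A and 0.000469 min in B. The path probabilities of a position summed to a median of 0.989 in A and 0.992 in B, and they fell to 0.116 in A and 0.530 in B left of the break on chromosome XII. The files analysed hold no counts, so no interval that needs depth is given.

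A site's probability is the mean of its rightward and leftward sides, kept from 0.1 upward, and sites of A and B within 2500 bp were joined. Between sites of at least 0.3, termination is the position at which the rightward share has gone through 50% of its fall in that interval. Where this level was crossed more than once, the mean of the first and last crossing was taken. Windows of 5 kb needed 50% of their positions. The 8 measures per sample were compared between wild type and the other 3 samples with two-sided exact permutation tests and Benjamini-Hochberg adjustment. Relations across sites, intervals and chromosomes carry no p. Named items are the 8 sites highest, earliest, latest and most different between A and B, the 6 longest distances, the 5 narrowest and widest zones, the 5 longest one-way runs, and the 5 longest runs of early and of late windows, ranked by fixed rules. The members, measures and rules were chosen with earlier results of these data known. Other site thresholds, joins, flanks, windows and left-out samples were tried. The reading of sites, their probability and start time, and a termination position was tested on a simulated chromosome with known sites. The other measures were not tested in that way. Tools were scipy 1.17.1, pandas 2.3.3, numpy 2.4.6 and, for the plots, matplotlib 3.10.9, under Python 3.11.15.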

Additional observations from a re-analysis of the deposited data

How the results depend on the processing

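Times rest on a constant fork speed and a 0 set per chromosome. Zone widths rest on the 500-bp step and on the 1 start time that the fit gives each site. With 2 against 3 samples no measure can pass the threshold, so alternatives were read for direction alone. Wild type minus the other 3 kept its sign for all 8 measures in 42 of 43 planned or added settings; the interquartile range of mean time, 0.754 min, became -0.354 min as a standard deviation. With each sample left out in turn, the sign held in 38 of 40 results. The median distance between sites, 2.06 kb, ran from -0.275 kb (without wild type A) to 4.39 kb, and the range of mean time from -0.157 min (without galactose E) to 1.52 min. The other ranges were -32 to -1 sites (the first without glucose F, the second without galactose G), -85.7 to -40.5 initiations, -0.204 to -0.130 in mean probability, 0.0646 to 0.0871 kb in zone width, 4.63 to 10.9 points in offset and -29.3 to -20.3 points in the one-way share. Over the middle 80% of the fall, the difference in zone width was 7.70 kb in place of 0.0755 kb.

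Shared sites numbered 224 to 273 over 5 settings, against 266. The mean of both correlations of probability with start time, -0.0973, was -0.184 with sites of at least 0.3 and -0.166 with start times centred by chromosome, a setting chosen after seeing the data. Spearman's rho of the chromosome order, 0.662, was 0.638 in windows of 20 kb, 0.779 without the outermost 30 kb and 0.811 without chromosome XVI, also chosen after seeing the data. The mean slope of termination offset, 1189 bases per minute, was 840 with flanking sites of at least 0.1 and 1393 with at least 0.5; the cause was not tested. No paired analysis was possible because the labels name the wild-type and galactose samples by letters, and the numbers 1 and 2 given to them here follow accession order and pair nothing.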
